A study of Mus musculus with 8 samples.

Results

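Nckap1l (Hem1) is 1 of 10 genes examined here that encode subunits of the WAVE regulatory complex, the others being Nckap1, Cyfip1, Cyfip2, Wasf1, Wasf2, Wasf3, Abi1, Abi2 and Abi3. They were taken by symbol: every non-control probe whose RefSeq accession maps to one of these 10 symbols was used, which gave 14 probes, among 27206 probes for 20641 named genes on the array. Nckap1l was chosen by its measured levels, for a large difference between the culture media, so its values are a description with no test. The 9 paralogs were taken for their place in the complex. Of the 10 genes, 9 passed the filter on dim probes and Abi3 did not.

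Levels were measured in primary spheres, free-floating clusters grown from dissociated cells, on 1-colour Agilent arrays. Their source was the superior mesenteric ganglion (SMG), part of the sympathetic nervous system, in 3-week-old mice of strain background 129+Ter/SvJcl. All mice were TH-MYCN hemizygote (TH-MYCN+/-), so cultures of both media carry a transgene that drives human MYCN from a tyrosine hydroxylase promoter in sympathetic cells and is a model of neuroblastoma. The dissociated cells of a ganglion were shared out between RA (-) medium and RA (+) medium, where RA is read as retinoic acid, and were cultured for 8 days, which gave 4 RA (-) and 4 RA (+) arrays from 4 animals, with no wild-type culture among them.

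The WAVE complex turns a signal from the small GTPase Rac into branched actin filaments. It holds 1 protein each of the Nckap1, Cyfip, Wasf and Abi families together with the small subunit Brk1: the Cyfip protein binds active Rac, the Nckap1 protein holds the scaffold together, and the Wasf protein, once released, switches on the Arp2/3 complex, which nucleates the branch. Cells choose among the paralogs, and Nckap1l is known as the form of blood cells, where most other cells use Nckap1. Nerve cells use the complex in growth cones and spines.

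The arrays were alike in depth: 48.5% to 55.0% of spots were well above background on RA (-) arrays and 52.7% to 55.3% on RA (+) arrays, and no spot was saturated. The media lay apart on the first principal component (81.7% of variance), with RA (-) array 1 nearer to the RA (+) arrays than the other RA (-) arrays were. Th, tyrosine hydroxylase, changed by 3.59 and the retinoic acid target Rarb by −1.77 on the log2 scale, RA (-) minus RA (+), and all 10 sympathetic markers examined passed the filter. At an adjusted p under 0.05 by limma, 2 of these 10 were higher in RA (-) spheres, Th and Isl1 (2.00). Another 4 were lower, among them Prph (−5.20) and Dbh (−1.53). Of all tested genes, 36.1% were higher and 28.2% lower. Mouse Mycn changed by −0.18 (adjusted p = 0.198 by limma); its probe need not detect the human transgene.

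Nckap1l was abundant in RA (+) spheres and not well above background in RA (-) spheres. Levels are given as log2 of the processed signal over the array's 75th percentile. Its probe (NM_153505) read −6.02, −5.85, −5.71 and −5.81 in RA (-) spheres of animals 1 to 4, against 3.48, 3.47, 3.62 and 3.23 in RA (+) spheres. The 2 sets lie far apart, and each varies little: −5.85 ± 0.13 in RA (-) and 3.45 ± 0.16 in RA (+) (SD, n = 4 each). In every animal the RA (-) level was lower, by −9.50, −9.32, −9.33 and −9.04, with a mean of −9.29. Because the RA (-) signal lies in the background, that difference has no fixed size. Set against the lowest signal detected on the RA (-) arrays, Nckap1l was at least 206-fold lower in RA (-) spheres, with animals between 137-fold and 280-fold. In bulk spheres, fewer cells that express a gene and less RNA per cell cannot be told apart.

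**Figure D1:**
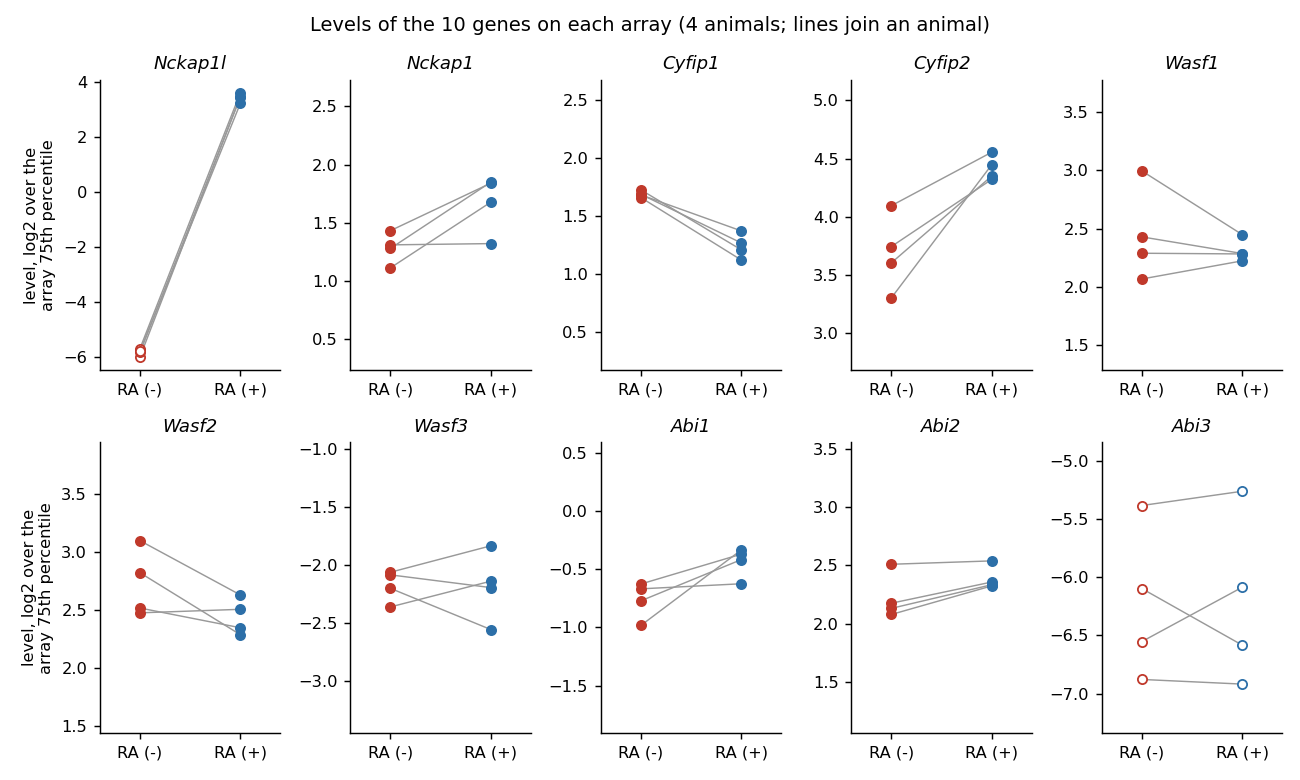
Level of each of the 10 genes on each array (vertical axis, log2 over the array's 75th percentile), RA (-) left and RA (+) right, with lines joining an animal. Open points are not well above background; every panel but that of Nckap1l spans 2.5 units. Nckap1l lies between −6.02 and −5.71 in RA (-) and between 3.23 and 3.62 in RA (+), while the mean change of each tested paralog is under 1.

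The probe is printed at 10 places on each array, which shows the error within an array. On RA (-) arrays, 0 of 37 usable spots were well above background, against 37 of 37 on RA (+) arrays. The median spot read 4.81, 4.23, 4.67 and 4.21 intensity units on RA (-) arrays and 3387, 3444, 2816 and 2817 on RA (+) arrays. Spots of an RA (+) array agreed closely, with a coefficient of variation of 3.27% to 4.47%, whereas the faint RA (-) spots varied by 9.93% to 42.2%. A single RA (-) spot stood out, at 50.1 units in animal 4. It carries the deposited outlier mark and was left out; with outlier spots kept, the mean change was −9.21.

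**Figure D2:**
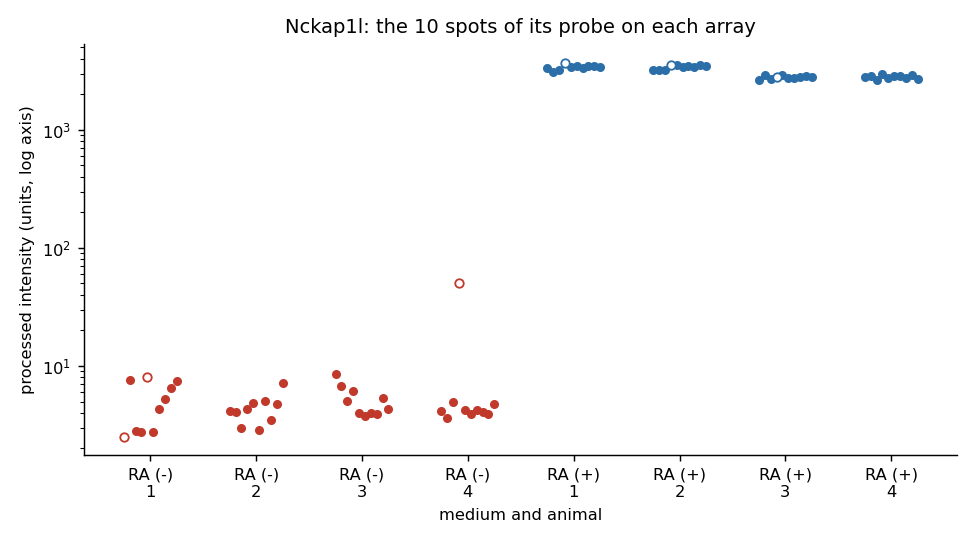
Processed intensity (vertical log axis) of the 10 spots of the Nckap1l probe on each array, RA (-) arrays 1 to 4 and then RA (+) arrays 1 to 4; open points are outlier-marked spots. All RA (-) spots but 1 lie between 2.52 and 8.58 units, and all RA (+) spots between 2641 and 3713.

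Few genes behave in this on-or-off way. Of 13538 tested genes, 184 (1.36%) were well above background on all RA (+) arrays and on no RA (-) array, and 40 (0.295%) showed the reverse. By its bound Nckap1l ranks 3 of the 184, after Hoxb5 with at least 1148-fold and the opioid precursor gene Penk, and 80 of the 184 have bounds of 2-fold or less. The 5 genes whose levels over the 8 arrays were most like those of Nckap1l were Frmpd4, Hoxb5, Tmem100, Lrfn2 and Dcaf12l1, with Pearson r of 0.999, 0.998, 0.996, 0.996 and 0.996. The r describes mostly the gap between media that all candidates share: its median over the 183 other genes was 0.948. Hoxb5, a homeobox transcription factor gene, had levels between −6.37 and −4.96 in RA (-) spheres, against levels between 5.68 and 6.15 in RA (+) spheres.

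The markers of blood cells, the usual site of Nckap1l, were largely at background. Of 30 such markers, 29 had a probe and 17 of these were well above background on no array of either medium. The 17 include Ptprc (CD45), carried by nearly all nucleated blood cells, Spi1, the transcription factor of the myeloid lineage, and Laptm5, Tyrobp and Cd52. Of the 8 that passed the filter, 3 fell in RA (-) spheres and 0 rose, where 28.2% of all tested genes fell and 36.1% rose. The 3 were Itgam, Aif1 and Adgre1, and the last 2 could only have fallen, so the count shows no direction for the markers. The macrophage genes Aif1 and Adgre1 were well above background on every RA (+) array and on no RA (-) array, but close to the detection limit: the bounds are at least 1.43-fold lower for Aif1 and at least 1.39-fold lower for Adgre1. Both passed the filter only through their RA (+) arrays. Their direction was thus fixed by the filter, and no p is given for them.

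Itgam, an integrin chain of myeloid cells, was well above background on all 8 arrays and changed by −0.51 (adjusted p = 0.0079 by limma; a second probe gave −0.16). Csf1r, a growth factor receptor of macrophages, changed by 0.02, the T cell gene Cd3e by −0.07, the complement gene C1qb by 0.04, the receptor chain Fcer1g by 0.33 and the integrin chain Itgb2 by −0.10, and none of these 5 passed the test. The linear levels of the 29 markers summed to 15.4 to 17.7 times the 75th percentile on RA (-) arrays and to 19.7 to 24.2 times on RA (+) arrays. Itgam alone made up 12.1 to 14.1 of the RA (-) sum and 16.5 to 21.6 of the RA (+) sum. Without Itgam the sums overlapped, at 3.29 to 3.62 on RA (-) arrays and 2.64 to 4.38 on RA (+) arrays. These sums rest largely on Csf1r and Cd3e, with mean log2 levels of 0.79 and 0.04 in RA (-) and 0.77 and 0.11 in RA (+). Every other marker left had a mean of −3.57 or lower in both media, so the overlap says little about those markers. The part of these markers in the Nckap1l difference was not tested beyond these values.

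**Figure D3:**
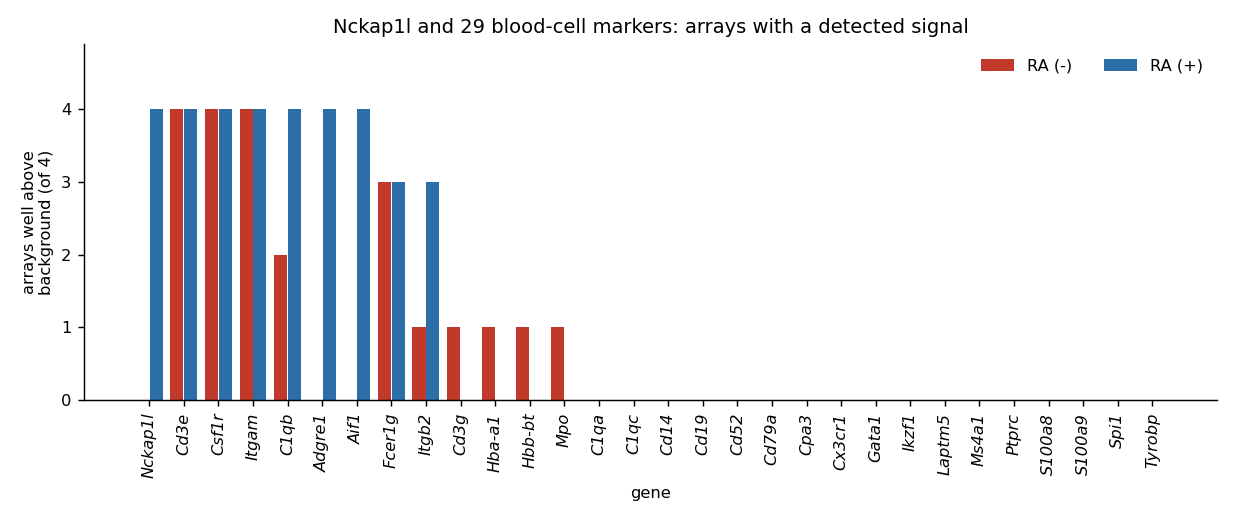
Number of arrays (vertical axis, of 4 in each medium) on which Nckap1l and the 29 blood-cell markers were well above background, RA (-) left and RA (+) right in each pair. Nckap1l was seen on 0 RA (-) and 4 RA (+) arrays, and 17 markers on none.

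Nckap1, the widely used paralog of Nckap1l, did not move the other way. It read 1.11, 1.43, 1.31 and 1.28 in RA (-) spheres, against 1.68, 1.84, 1.32 and 1.85 in RA (+) spheres. The RA (-) level was lower in all 4 animals but hardly so in animal 3, and the ranges overlap. The change was −0.39 ± 0.12 (SE; 95% interval −0.68 to −0.10; adjusted p = 0.0278 by limma over all 13538 genes). The call was lost without animal 1, 2 or 4, under array-median and spike-in scaling, and with dim probes kept. With Nckap1l at its bound, the change of Nckap1l minus that of Nckap1 was −7.30 ± 0.53 (SD, n = 4), which is a description because Nckap1l was chosen for its change.

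Among the 8 tested paralogs, 1 rose and 3 fell in RA (-) spheres. That is 4 of 8 called, where 64.3% of all tested genes were called, so this share is near the background; 36.1% of all genes were called higher and 28.2% lower. The changes ran from −0.73 to 0.45 with a median of −0.08, against a median of 0.07 over all tested genes. Each was under 1 on the log2 scale, as for 81.8% of all tested genes. For 3 paralogs the 4 values of one medium all lay above the 4 of the other, which held for 53.3% of all tested genes.

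The Cyfip genes, whose proteins bind Rac, moved in opposite directions. Cyfip1, the widely expressed form, read 1.72, 1.68, 1.68 and 1.66 in RA (-) spheres, against 1.21, 1.37, 1.27 and 1.12 in RA (+) spheres, without overlap. It rose by 0.45 ± 0.07 (SE; 95% interval 0.26 to 0.63; adjusted p = 0.0034 by limma), in 4 of 4 animals. Cyfip2, the form prominent in brain and lymphocytes, read 4.09, 3.60, 3.30 and 3.74 in RA (-) spheres, against 4.56, 4.35, 4.45 and 4.32 in RA (+) spheres, also without overlap. It fell in 4 of 4 animals, with a change of −0.73 ± 0.13 (SE; 95% interval −1.05 to −0.42; adjusted p = 0.0038 by limma). Under spike-in scaling, both kept their direction (0.59 and −0.59) and neither passed the test (adjusted p = 0.0552 and 0.0586 by limma).

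Set against each other within an animal, where any factor common to the array cancels, the change of Cyfip2 minus that of Cyfip1 was −1.18 ± 0.26 (SD, n = 4), between −1.56 and −0.98. The difference was negative in 4 of 4 animals. The exact two-sided sign-flip test gave p = 0.125, the smallest that test can give with 4 animals, and 0.417 after adjustment over the 5 paralog pairs, so its p cannot pass the threshold whatever the size of the difference.

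**Figure D4:**
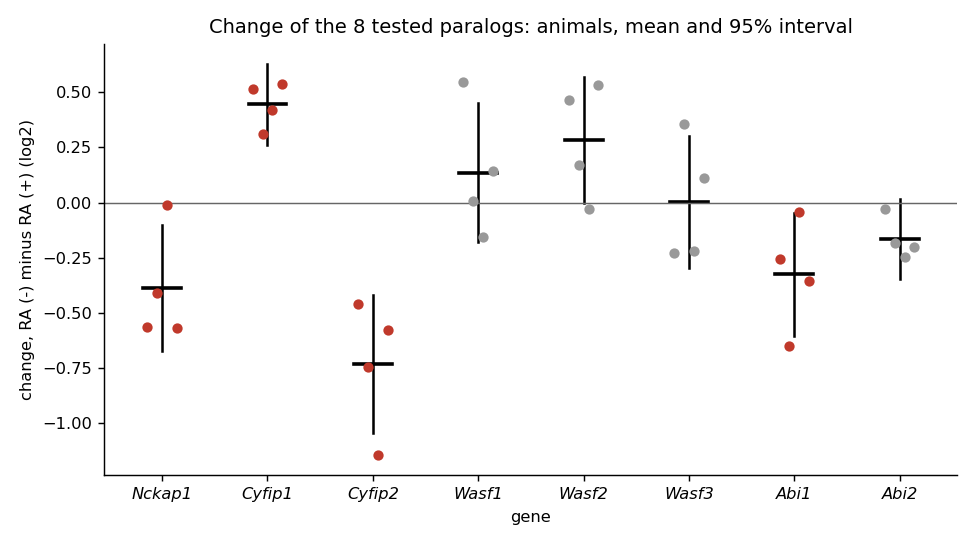
Change of the 8 tested paralogs (vertical axis, log2, RA (-) minus RA (+)): points are animals, thick bars the mean, thin lines the 95% interval from limma, and red points mark the 4 genes that passed the test. Cyfip1 at 0.45 and Cyfip2 at −0.73 lie on opposite sides of 0.

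The start of Cyfip2 is shown because it is the paralog with the largest tested change, and that of Wasf3, which had the smallest, is set beside it. Both come from the RefSeq promoter windows of assembly GRCm38.p6, from 250 bases before to 50 after the start; 5 of the 10 genes had such a window (Abi1, Cyfip2, Wasf1, Wasf2 and Wasf3). Capitals mark 4 hexamers on either strand (the motif AGGTCA, the motif AGTTCA, the motif GGGTCA and the motif GGTTCA), the half-sites that nuclear receptors of the retinoic acid receptor class are known to bind.
Cyfip2, chr11:46312309-46312608, minus strand: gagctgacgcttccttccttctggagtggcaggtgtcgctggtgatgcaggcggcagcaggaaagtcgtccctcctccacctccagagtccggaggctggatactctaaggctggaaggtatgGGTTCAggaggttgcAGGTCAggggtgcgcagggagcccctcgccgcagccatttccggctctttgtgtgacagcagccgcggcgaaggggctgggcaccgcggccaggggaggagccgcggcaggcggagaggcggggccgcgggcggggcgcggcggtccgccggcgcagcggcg
Wasf3, chr5:146384756-146385055, plus strand: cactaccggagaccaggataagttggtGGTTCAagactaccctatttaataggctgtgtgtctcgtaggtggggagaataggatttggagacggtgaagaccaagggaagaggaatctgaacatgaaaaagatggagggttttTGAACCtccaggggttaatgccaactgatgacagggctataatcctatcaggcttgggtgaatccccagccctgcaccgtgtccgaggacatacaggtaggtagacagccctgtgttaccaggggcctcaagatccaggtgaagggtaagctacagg

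In the Cyfip2 window, GGTTCA lies 127 and AGGTCA 112 bases before the start on the same strand, with 9 bases between them. In the Wasf3 window, GGTTCA lies at 223 bases before the start and, on the other strand, at 107. At least 1 of these hexamers was found in 43.7% of all 32851 windows, so its presence is common. A pair on one strand with 1 to 5 bases between, the spacing of classical elements, was found in 0.700% of windows and in none of the 5 genes. The window of Rarb holds such a pair, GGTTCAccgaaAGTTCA, with 5 bases between. The Abi1, Wasf1 and Wasf2 windows hold none of the 4 hexamers. A match describes letters in these windows alone.

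The Wasf genes, which encode the actin-nucleating subunit, gave no call. Wasf1, the form enriched in brain, read 3.00, 2.29, 2.07 and 2.43 in RA (-) spheres, against 2.45, 2.28, 2.22 and 2.28 in RA (+) spheres. Only animal 1 stands clearly above its partner, and the change of 0.14 (95% interval −0.18 to 0.45) had an adjusted p of 0.388 by limma. Wasf2, the widely expressed form, read 3.10, 2.52, 2.47 and 2.82 in RA (-) spheres, against 2.63, 2.35, 2.50 and 2.29 in RA (+) spheres, with overlap.

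Its change was 0.28 (95% interval −0.0010 to 0.57; adjusted p = 0.0739 by limma), and its other probes gave 0.33 and 0.32. The probe at 0.32 was higher in 4 of 4 animals (adjusted p = 0.0152 by limma over 29355 tested probes), and the mean over the 3 probes passed the test (adjusted p = 0.0212 by limma). Wasf3 changed by 0.00 (95% interval −0.30 to 0.30; adjusted p = 0.980 by limma), and its second probe by −0.26. The intervals allow changes of the size seen for Nckap1 or Abi1 in Wasf1 and Wasf2, so these tests do not show equal levels.

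The Abi genes encode the adaptor subunit. Abi1 read −0.63, −0.98, −0.67 and −0.77 in RA (-) spheres, against −0.37, −0.33, −0.62 and −0.42 in RA (+) spheres, with RA (-) array 1 and RA (+) array 3 nearly level. It was lower in 4 of 4 animals, with a change of −0.33 ± 0.11 (SE; 95% interval −0.60 to −0.05; adjusted p = 0.0451 by limma), and it passed the test in 8 of 15 settings. In the fit over all 29355 tested probes, Abi1 did not pass (adjusted p = 0.0546 by limma). Abi2 changed by −0.17 on both of its probes (95% interval −0.35 to 0.02 and adjusted p = 0.0944 by limma for the brighter). The brighter probe was lower in 4 of 4 animals and the other in 3 of 4. Abi3, known as a form of blood cells and microglia, was at background on all 8 arrays.

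In the other pairs within a family, the difference changed sign between animals. The change of Wasf1 minus that of Wasf2 was −0.15 ± 0.19, that of Wasf3 minus Wasf2 −0.28 ± 0.37, that of Wasf1 minus Wasf3 0.13 ± 0.47 and that of Abi2 minus Abi1 0.16 ± 0.28 (SD, n = 4 each). Adjusted p ran from 0.417 to 0.625 in the exact sign-flip test, which could call no pair at this number of animals.

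Brk1, the common small subunit, changed by 0.20 (adjusted p = 0.141 by limma). In the Arp2/3 complex, the target of the Wasf proteins, 3 of 10 tested genes rose and 1 fell, where 36.1% of all tested genes rose and 28.2% fell, with a median of 0.14 against 0.07. The one that fell was Arpc1b, a subunit whose loss in humans is known to impair blood cells. It read 1.11, 1.68, 1.60 and 1.48 in RA (-) spheres, against 3.15, 3.38, 3.29 and 3.04 in RA (+) spheres. These sets are well apart, and the change was −1.75 ± 0.10 (SE; 3.36-fold lower; adjusted p = 0.000104 by limma). Its paralog Arpc1a changed by 0.07 (adjusted p = 0.439 by limma). Actr2 rose by 0.54, and Actr3 and Arpc3 by 0.23 and 0.21, though with quantile normalization Actr3 changed by −0.070 and Arpc3 by −0.14. Another Arpc3 probe changed by −0.0009, and the mean over the Arpc3 probes did not pass the test (adjusted p = 0.161 by limma).

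Of the genes that feed signals to Rac or to the complex, 34 of 35 had a probe and 30 were tested, of which 8 rose and 10 fell, with a median of −0.02. These 18 of 30 are near the 64.3% called among all tested genes. Rac1 changed by 0.04 (adjusted p = 0.642 by limma) and by 0.32 on its other probe, while Rac3, a form of neurons, fell, with a change of −1.78. The Rac activator gene Tiam2 was well above background on all RA (+) and no RA (-) arrays and was at least 3.48-fold lower in RA (-) spheres. Under normexp with quantile normalization, which compresses dim signals, its change was −0.55. It passed the filter only through the RA (+) arrays, so it could only have fallen, and no p is given for it. The 10 that fell and the 18 called include it. Srgap3, a Rac inhibitor, changed by −1.54 and the Rac activator gene Dock5 by 1.28. The blood-cell forms Rac2, Vav1 and Dock2, and Elmo1, were on no array.

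Among other promoters of nucleation, 2 of 12 rose (Wipf1 and Washc3) and 2 fell (Wipf2 and Washc2, each with a change of −0.36), where 64.3% of all tested genes were called. Washc3 changed by 0.79. Wipf1 was well above background on 4 RA (-) arrays but on only 1 RA (+) array, so its change of 1.28 is measured largely against background, and normexp with quantile normalization gave 0.26. Was, the form of blood cells, was well above background on all 8 arrays and changed by 0.04 (adjusted p = 0.828 by limma). Of 22 tested regulators of branches and lamellipodia, 4 rose and 9 fell, with a median of −0.06, again near the 64.3% called among all tested genes. The coronin genes Coro2a and Coro1a changed by −1.34 and −1.09, the filament elongator Vasp by −0.88 and the capping protein regulator Carmil3 by −0.80. Of 12 formins, which build unbranched filaments, 2 rose and 4 fell, where 36.1% of all tested genes rose and 28.2% fell: Diaph3 changed by 1.62 and Fmnl3 by 0.64, and Diaph2 by −1.75 and Fmn2 by −0.53. Normexp with quantile normalization, which compresses dim signals, kept direction and call of these genes but gave 0.60 for Dock5, −0.76 for Coro2a, −0.69 for Diaph2 and 0.35 for Fmnl3.

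Of 20 actin genes known from blood cells, 9 were on no array and 8 were tested, of which 4 rose and 3 fell, where 36.1% of all tested genes rose and 28.2% fell. Fgd3 changed by 1.67 (0.73 with normexp), Arhgap45 by 0.87 (0.52 with normexp) and Arhgdib by 0.35 (a second probe 2.32). Myo1g, an unconventional myosin gene, was well above background on 4 RA (-) and 0 RA (+) arrays, at least 1.78-fold higher in RA (-) spheres. It passed the filter only through the RA (-) arrays, so it could only have risen, and no p is given for it. The 4 that rose include it, so that count is not free of the filter. Arpc1b and Coro1a fell as given above, and Lsp1 changed by −0.54.

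**Figure D5:**
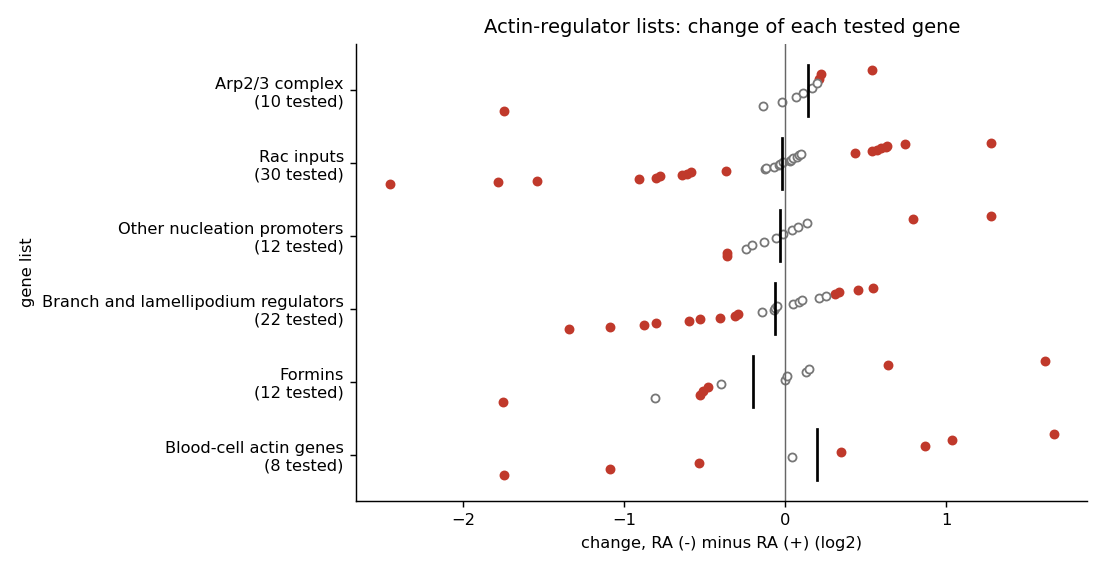
Change of each tested gene in 6 lists of actin regulators (horizontal axis, log2, RA (-) minus RA (+)); filled points passed the test, open points did not, and the vertical bar is the list's median. Medians lie between −0.20 and 0.20, and Arpc1b stands alone in its list at −1.75. Tiam2 and Myo1g are drawn as filled points, though the filter fixed their direction and no p is given for them.

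In gene order on chromosome 15, the gene next after Nckap1l is Pde1b, which encodes a calcium-dependent phosphodiesterase. It read 1.07, 0.36, 0.32 and 0.36 in RA (-) spheres, against 3.63, 3.56, 3.85 and 3.41 in RA (+) spheres. All RA (-) values are lower, and the change was −3.09 ± 0.16 (SE; 8.49-fold lower; adjusted p = 9.40e-05 by limma). The next one, the phosphatase inhibitor gene Ppp1r1a, changed by −1.03 (2.04-fold lower, with −0.62 under normexp; adjusted p = 0.000200 by limma). On the other side the nearest gene, the pseudogene Marcksl1-ps3, had no probe. Of 17 genes examined around Nckap1l, 9 had a probe and 4 were tested. Among these 4, 2 were called, both lower, where 64.3% of all tested genes were called and 28.2% were called lower. The others tested, Gpr84 and Zfp385a, changed by −0.64 and −0.20 without passing the test. Gpr84 is dim, being well above background on only 1 RA (-) and 3 RA (+) arrays.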

How the data were processed

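Per the file headers, the 8 arrays (design 028005, annotation on mm9) share 1 slide and 1 scan, and the authors read them with Feature Extraction 11.5.1.1. The deposited processed intensity is background-subtracted within each array and not scaled between arrays, and the deposited flags mark spots well above background and outlier spots. A value table that the authors deposited, on a log2 scale, was used as an alternative; its scaling is not given in the sources used here.

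Outlier spots were left out, intensities taken to log2, each array's 75th percentile subtracted and spots of a probe averaged. Probes were named through their RefSeq accession and a RefSeq table of GRCm38.p6 (27235 of 55681 probes matched 1 symbol), which also gave gene order. A probe was tested where at least 4 of 8 arrays showed it well above background, and the brightest one stood for its gene, leaving 13538 genes. The comparison, RA (-) minus RA (+), used limma (version 3.58.1, R 4.3.3), animals as blocks, and Benjamini-Hochberg adjustment across those genes at a threshold of 0.05. The fit was tested on simulated data. Where a gene was not well above background in one medium, the bound is the brighter group's mean against the higher, per array, of the lowest detected signal and the gene's own.

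The labels give replicate numbers and one ganglion per pair of cultures. Deviations of same-numbered arrays from their medium's mean correlated at 0.52, 0.30, 0.19 and 0.33. The number of animals, 4, limits the precision. Per the labels, 40 or 200 ng of RNA was labelled, with no amount tied to an array, so a difference in input between arrays or media was not tested. The normexp alternative used the median spot signal in place of the mean signal that was planned. Alternatives were other scalings, filters, probe rules, no replicate block and each animal left out.

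The named genes are the 10 complex genes, the most changed called genes of each list (up to 4), the blood-cell genes above background on at least 4 arrays plus Ptprc, Spi1, Was and Rac2, the nearest and called neighbours of Nckap1l, the 5 genes with the most similar pattern, and Mycn, Th and Rarb. Other genes named, such as Brk1, Rac1, Arpc1a and Penk, were singled out after their values were seen, as was Itgam's share of the marker sum. The members and lists were chosen with earlier results of these data known. Markers of glia, fibroblasts, endothelium and adrenal cortex were also examined: 2 of 7, 5 of 7, 1 of 4 and 1 of 2 tested genes changed, where 64.3% of all tested genes did. In that order 0, 1, 0 and 1 rose and 2, 4, 1 and 0 fell, where 36.1% of all tested genes rose and 28.2% fell. Among the fibroblast genes that fell, Dcn passed the filter only through its RA (+) arrays.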

Additional observations from a re-analysis of the deposited data

Results flagged for a closer look

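Dixon's test was applied to 100 sets of 4 arrays, 1 for each medium of 50 named genes, and marked 7 of them, where chance marks about 1 in 20. Among the complex genes it marked 1: Abi2 read 2.54 on RA (+) array 1, above the other RA (+) arrays at 2.32 to 2.36. RA (+) array 1 was also the lowest for Actr2, at 2.22 against 2.45 to 2.49 on the others. RA (-) array 1 stood apart for 3 genes: Pde1b read 1.07 against 0.32 to 0.36, Lsp1 1.14 against 1.51 to 1.57, and Rarb 2.31 against 2.65 to 2.70. Fmnl3 read −1.89 on RA (-) array 2, against −1.39 to −1.30 on the other RA (-) arrays. Diaph2 read −2.44 on RA (+) array 4, against −1.78 to −1.71 on the other RA (+) arrays.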

How the results depend on the processing

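Under spike-in scaling, which moved the median of all genes by 0.15, 5413 genes were called in place of 8705, and of the paralogs 0 were called in place of 4 by limma (2 at an unadjusted p under 0.05), 0 higher and 0 lower; the Arp2/3 list had 2 calls in place of 4, the other nucleation promoters 2 in place of 4 and the branch regulators 5 in place of 13. With dim probes kept, which moved the median by 0.11, 2 paralogs were called, 1 of them lower, and 2 Arp2/3 genes. With the array median, 2 paralogs were called higher and 1 lower, and with the mean over a gene's probes 2 were higher. The 75th percentile of detected probes moved the median by −0.11, and 46.3% of calls were higher there, against 56.1%. Normexp with quantile normalization gave −5.44 for Nckap1l, −0.011 for Abi2 minus Abi1, −0.077 for Actr3 and −0.10 for Arpc3, and quantile normalization −0.070 for Actr3 and −0.14 for Arpc3. Leaving out each animal gave 7350 to 8245 genes called, 2 to 5 paralogs called (1 to 2 higher, 1 to 3 lower), 2 to 3 Arp2/3 genes, and −0.083 to 0.29 for Wasf1 minus Wasf3, negative without animal 1. Without the replicate block for the animal pairing, 8022 genes and 4 paralogs were called. Over 15 settings Cyfip1 and Cyfip2 passed the test in 14, Nckap1 in 9, Abi1 in 8, Wasf2 and Abi2 in 3, and Wasf1 and Wasf3 in 0. Under spike-in scaling the SE was 0.26 for each tested paralog, against 0.07 to 0.13 in the main fit. The cause of the shifts between settings was not tested. Signals near background have only a bound.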
